A study of Mus musculus with 21 samples.

Results

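The genes of the liver's detoxification enzyme families were described across 21 mouse liver tumours profiled by array comparative genomic hybridization (aCGH), which compares the DNA of a tumour with that of a reference on the same array. Members were all autosomal genes on the arrays whose symbol begins with Cyp, Ugt1, Ugt2, Gst, Sult, Ces or Mup followed by a number, or with Gst, a letter and a number. This rule gave 149 genes with 306 probes, out of 22155 named autosomal genes. Of these, 86 were Cyp genes, 19 Gst, 17 Ces, 16 Sult, 10 Ugt and 1 Mup. The rule used names only and no measured value.

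All tumours grew in livers of C57BL/6 mice kept for 12 months on CD-HFD, a high-fat diet that lacks choline and leads to fatty liver disease. Of these tumours, 9 came from 7 mice that received the diet alone (the CD-HFD group), and 12 came from 7 mice that were afterwards given anti-PD-1, an antibody against the T cell checkpoint receptor, for 8 weeks (the anti-PD1 group). Mice were told apart by the number that opens each sample's name, and 5 mice gave more than 1 lesion. The series' own design text counts 9 and 12 mice where the sample names give 7 and 7, so each n of mice below rests on reading the names in this way. DNA was taken from formalin-fixed, paraffin-embedded sections and labelled with Cy3, while the Cy5 reference was a pool described as liver tails from the same strain. No array of untreated liver against this reference was analysed here, so a value that every tumour shares may belong to the reference, the probe or the tumours. The sections can hold cells other than tumour cells, whose share is not given, so ratios were not turned into copy numbers. A ratio of genomic DNA gives no level of a tissue marker, and the label liver tumour was not checked here. Whether all values are ratios of DNA alone is not known, as described below.

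Each value below is the log2 ratio of tumour over reference signal, centred on the array's median and then set against the mean of the same chromosome in the same tumour. A value of 0 therefore means that a gene followed its chromosome, and gains or losses of whole chromosomes drop out. The arrays were of 2 designs, with 8 tumours on the first (4 of each group) and 13 on the second (8 anti-PD1 and 5 CD-HFD). Of the genes on both designs, 7628 had at least 1 probe in common between them and 4687 had none. On both designs there were 77 members, 23 were on the first alone and 49 on the second alone. A single probe read 65 members. In the tumour channel, 65.0% to 99.99% of probes were well above background, and the lowest shares were in mouse 608 lesion 1 (65.0%) and mouse 1770 lesion 1 (82.1%). In the reference channel the range was 90.8% to 99.5%.

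The liver clears drugs, steroids, bile acids and foreign chemicals in steps. Cytochrome P450 enzymes (Cyp) oxidize the compound and carboxylesterases (Ces) split its esters, after which UDP-glucuronosyltransferases (Ugt), sulfotransferases (Sult) and glutathione S-transferases (Gst) attach a water-soluble group. Major urinary proteins (Mup) are small carriers of lipophilic molecules that the mouse liver secretes. Many of these genes are tandem copies that lie side by side, and several are among the most abundant transcripts of hepatocytes.

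The sequences below are the 3 probes of Cyp2e1, the P450 that oxidizes ethanol and small solvents, an exon probe of Gsta4 and an exon probe of Cyp2f2. The Cyp2e1 and Gsta4 exon probes were among those that differed most between tumours, and the Cyp2e1 intron probe differed little. The Cyp2f2 exon 5 probe is shown as an exon probe outside the most variable 1% of autosomal probes (SD 0.27). Capitals mark bases inside an annotated exon (GENCODE, placed on GRCm38 by exact match) and lower case marks intron or flank. All 5 probes carry the letters of the gene's own transcript (the sense strand). Coordinates are those of the array design (mm9), plus strand.
Cyp2e1 exon 1 probe, chr7:147949891-147949950: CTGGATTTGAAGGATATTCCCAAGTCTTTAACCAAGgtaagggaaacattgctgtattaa
Cyp2e1 exon 5 probe, chr7:147955960-147956019: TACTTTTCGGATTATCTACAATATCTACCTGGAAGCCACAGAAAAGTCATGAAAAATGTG
Cyp2e1 intron 5 probe, chr7:147956492-147956551: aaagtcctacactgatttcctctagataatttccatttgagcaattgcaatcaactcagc
Cyp2f2 exon 5 probe, chr7:27914299-27914354: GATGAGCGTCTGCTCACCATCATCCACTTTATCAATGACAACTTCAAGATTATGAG
Gsta4 exon 3 probe, chr9:78047294-78047349: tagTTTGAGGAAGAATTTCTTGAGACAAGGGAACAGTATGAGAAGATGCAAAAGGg

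Cyp2e1 had the lowest fitted mean of the 77 members tested, and the ratios of its exon probes were far lower than those of its intron probe. At the exon 1 probe, where 36 of 60 bases are exon, the mean was -1.54 ± 1.06 (SD, n = 21 tumours). The 12 anti-PD1 tumours ran from -3.01 through a median of -1.79 to 0.69, and the 9 CD-HFD tumours ran from -2.18 through a median of -1.83 to 1.47. The groups overlapped throughout, and 19 of 21 tumours were below 0. The exceptions were mouse 1770 lesion 1 at 1.47 and mouse 612 lesion 5 at 0.69.

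The exon 5 probe, which lies wholly in an exon and is on the second design, had a similar range. Its mean was -1.31 ± 1.01 (SD, n = 13 tumours). The lowest value was -2.74 in mouse 1109 and the highest 1.03 in mouse 612 lesion 5. This was the same pair of extremes as at exon 1 among those arrays. Mouse 1109 had the highest log2 reference signal of all arrays at both exon probes (3.31 and 3.16, next 2.74 and 2.73). Its tumour signal was not the lowest at either, so its low ratios came partly from the reference channel. The intron 5 probe begins 365 bases after the end of that exon and has the same strand and length. It had a mean of -0.26 ± 0.17 (SD, n = 21), from -0.63 to 0.04. The 196 other probes within 1 Mb averaged between -0.21 and -0.09 in each tumour. Thus the wide range stood in the exon probes and was seen neither at the intron probe nor around the gene.

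**Figure D1:**
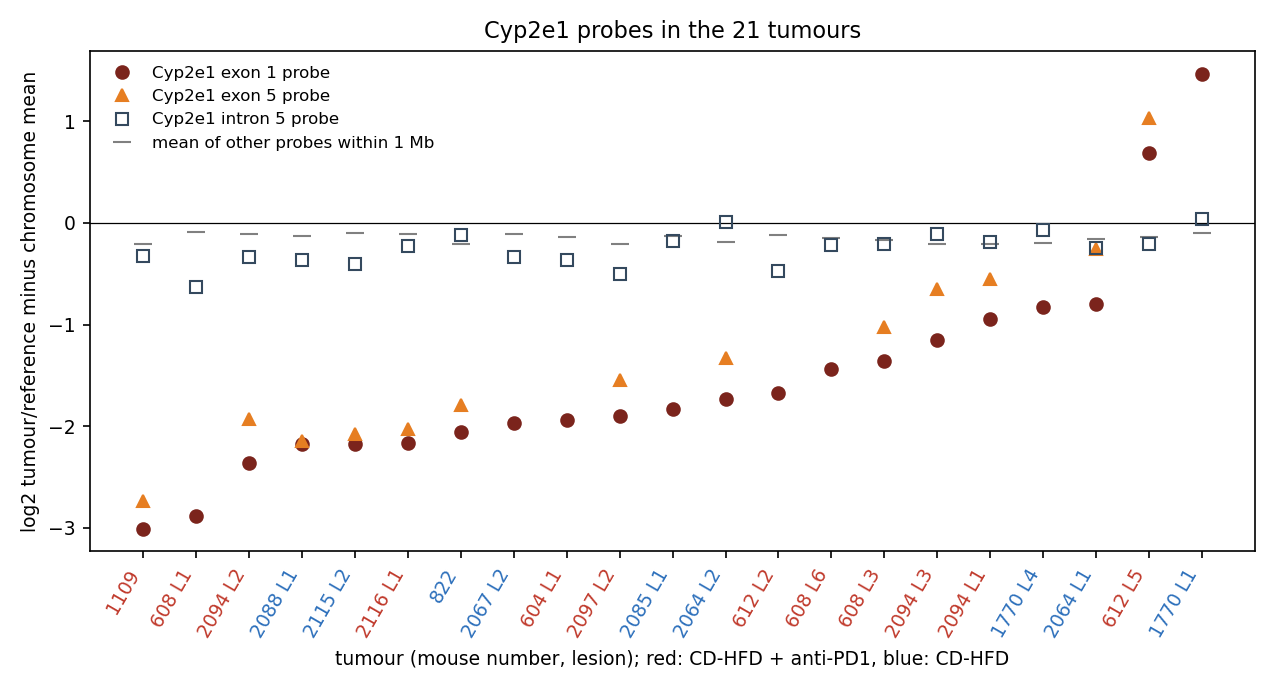
Log2 tumour over reference ratio, minus the mean of chromosome 7 in the same tumour, for the 3 Cyp2e1 probes and for the mean of the 196 other probes within 1 Mb, with tumours in order of the exon 1 value. Filled symbols (exon probes) run from -3.01 to 1.47 while open squares (intron) stay between -0.63 and 0.04; red and blue tumour names mark the groups, which are mixed along the axis.

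Lesions of the same mouse also differed at the exons. At exon 1, the lesions of mouse 612 lay 2.37 apart, those of mouse 1770 lay 2.30 apart, and those of mice 608, 2094 and 2064 spanned 1.52, 1.42 and 0.94. At the intron probe the same 5 mice spanned 0.11 to 0.43. Over mice, with each mouse's lesions averaged, the 2 exon probes had Pearson's r = 0.99 and Spearman's rho = 1.0 (n = 10 mice, permutation p = 1e-05 for each, the smallest that 100000 permutations can give, adjusted p = 3e-05 over the 6 pairs of probes examined), and r was 0.99 without the 2 mice farthest from the median. Exon 1 and intron 5 had r = 0.50 and rho = 0.45 (n = 14 mice, permutation p = 0.0687 and 0.112, adjusted p the same), and r was 0.35 without the 2 farthest, 0.80 on the first design (6 mice) and 0.36 on the second (10 mice).

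In the channels themselves, the exon 1 probe varied in the tumour signal (SD 0.96, log2) more than in the reference signal (SD 0.25). At the intron probe the SDs were 0.17 and 0.12. The levels differed too, taken relative to each array's median. At exon 1 the reference signal ran from 2.10 to 3.31 and the tumour signal from -0.25 to 3.58. At the intron probe they ran from -0.04 to 0.50 and from -0.45 to 0.24. Low exon 1 ratios thus stood beside a high reference signal, and only mouse 608 lesion 1 had a tumour signal below the array's median. The tumours with the weakest arrays took part in the range of exon 1 ratios, since mouse 608 lesion 1 was at -2.88 and mouse 1770 lesion 1 was highest. Without both, the exon 1 mean was -1.62 and its SD 0.80, against 0.14 at the intron. Anti-PD1 and CD-HFD did not separate at exon 1: the mice averaged -1.84 ± 0.76 and -1.59 ± 0.90 (SD, n = 7 each, exact permutation p = 0.596, two-sided). As a gene, the mean of all its probes, Cyp2e1 was at -0.97 ± 0.68 (SD, n = 21), with a fitted mean of -0.90 (SE 0.13, limma adjusted p = 1.6e-06), to which the exon and intron probes contributed unequally.

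This pattern was then counted over all members, after these values had been seen and without a test. For each probe well above background on every array that carries it, the SD over tumours was taken, and the most variable 1% of 65530 autosomal probes had an SD above 0.459. Of 27 member probes in exons on the sense strand, 6 were in that class (22.2%): those of Cyp2e1 (2 probes), Gsta3 (2), Gsta4 and Cyp2f2. Of 53 in exons on the antisense strand there were 0, of 60 in introns on the sense strand 0, and of 87 in introns on the antisense strand 1, in Cyp2j8. Over all autosomal probes the shares were 2% for exon sense (143 of 7166), 0.974% for exon antisense, 0.866% for intron sense and 0.893% for intron antisense. The median SD of member probes hardly differed by class, at 0.22, 0.23, 0.22 and 0.24 in the same order, so the difference lay in a few genes.

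**Figure D2:**
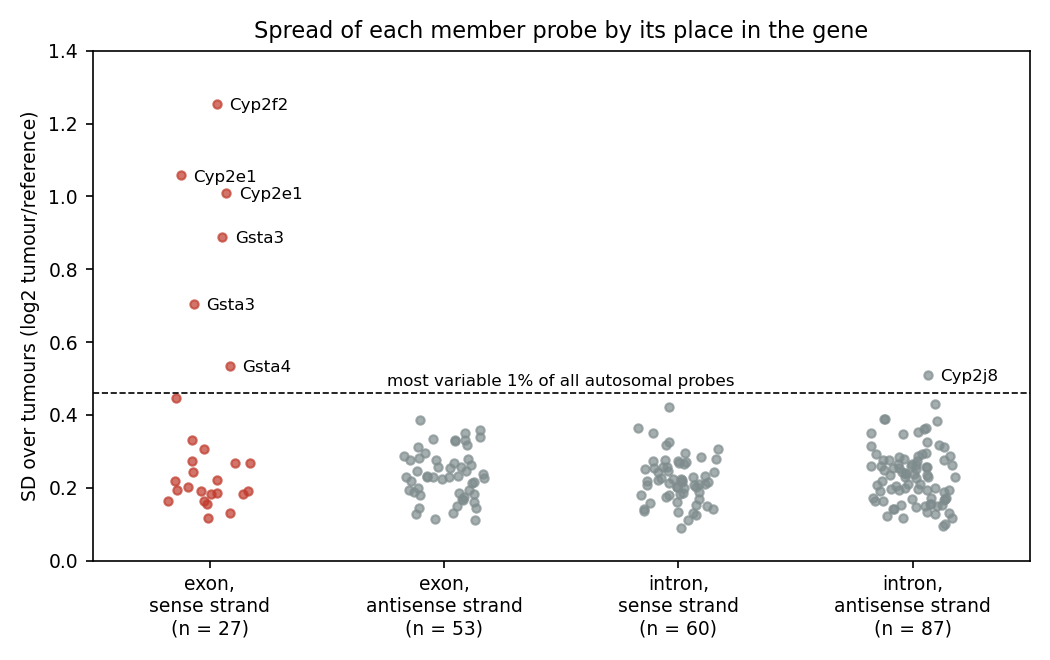
SD over tumours of the log2 ratio for each member probe well above background, by its place in the gene and its strand; each point is a probe and the dashed line marks the most variable 1% of all autosomal probes (0.459). The 6 named exon probes on the sense strand lie above the line, and of the other 3 classes the only probe above it is in Cyp2j8.

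Gsta3 and Gsta4 encode alpha-class glutathione S-transferases, which are abundant in hepatocytes. The probe in the last exon of Gsta3 had a mean of -0.29 ± 0.70 (SD, n = 21). That mean was 0.05 on the first design, -0.49 on the second and 0.22 with the authors' loess ratios, so its sign was not stable. Anti-PD1 tumours ran from -1.36 through -0.33 to 1.05 and CD-HFD tumours from -1.08 through -0.61 to 0.98. A neighbouring exon probe on the second design, with 46 coding bases, had a mean of -1.36 ± 0.89 (SD, n = 13). It ran from -2.76 in mouse 1109 to 0.18 in mouse 612 lesion 5. There too mouse 1109 had the highest reference signal (3.34, next 2.35), and its tumour signal was not the lowest. The 3 intron probes of Gsta3 had SDs of 0.20, 0.31 and 0.33, and those with 0.31 and 0.33 were read on the same arrays as the coding exon probe.

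The exon 3 probe of Gsta4 had a mean of 0.53 ± 0.54 (SD, n = 21), from -0.22 to 1.98. Its highest values were in mouse 608 lesion 1 (1.98), mouse 1770 lesion 1 (1.31) and mouse 608 lesion 6 (1.14). Mouse 608 lesion 1 and mouse 1770 lesion 1 are the tumours with the weakest arrays, and without them the SD was 0.39 and the probe no longer stood among the most variable 1%. The same was true with another background correction (normexp, SD 0.30) and on the second design alone (SD 0.40). The other exon probe of Gsta4, with 35 exon bases, had an SD of 0.22.

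Cyp2f2, a P450 best known from lung and also expressed in liver, was named after its values were seen. Its last exon was read only on the first design, and the 8 values there had an SD of 1.25. The lowest was -1.39 (mouse 604 lesion 1) and the highest 2.36 (mouse 608 lesion 1), followed by 0.25 (mouse 608 lesion 6). Without the 2 weakest arrays the SD was 0.65, which was still among the most variable 1%. The exon 5 probe, on the second design, had an SD of 0.27 around a mean of -0.75, and all 13 tumours were below 0.

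In all 6 of these exon probes the tumour channel was the wider, with SDs of 0.45 to 1.19 against 0.11 to 0.39 in the reference channel. Over the 65530 probes the median SDs were 0.23 and 0.14. Cyp2j8, a P450 of the Cyp2j cluster on chromosome 4, was the reverse: its intron probe had an SD of 0.20 in the tumour and 0.53 in the reference channel, and the value came from a single array, mouse 2116 at -1.72, with the other 12 tumours between -0.32 and 0.27.

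**Figure D3:**
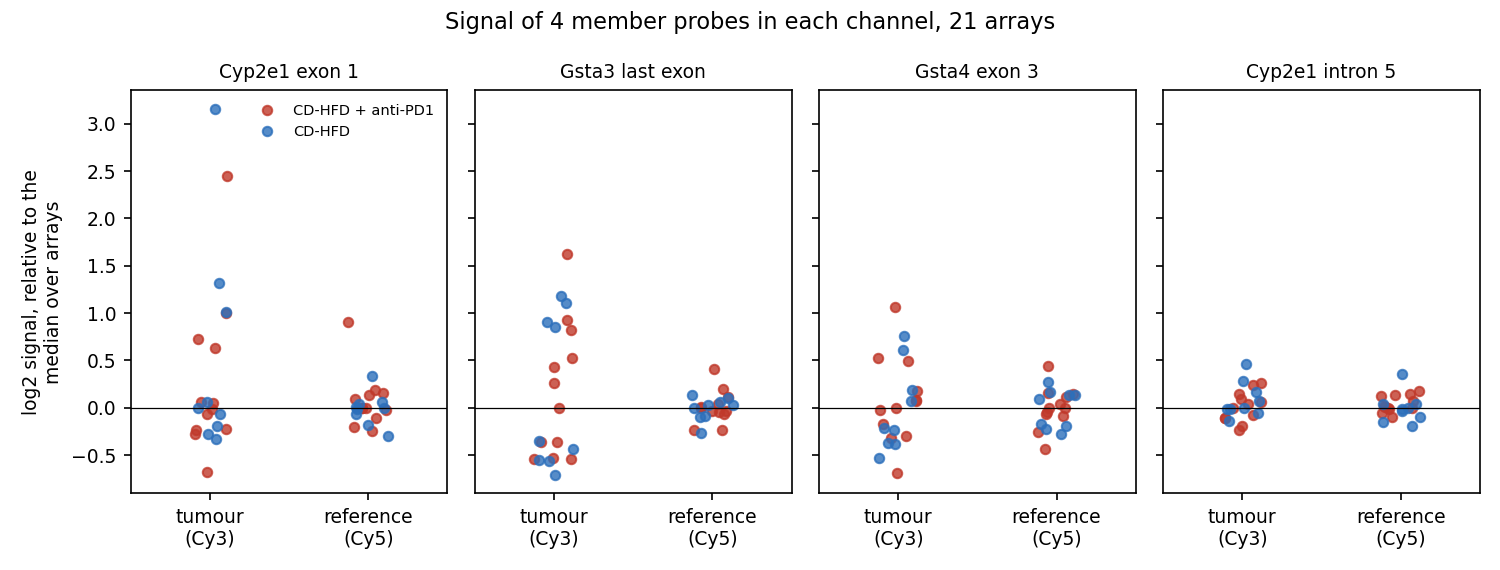
Log2 signal of 4 probes in the tumour (Cy3) and the reference (Cy5) channel of the 21 arrays, each relative to its median over arrays; points are arrays, coloured by group. The tumour channel of the 3 exon probes spreads more than the reference channel (for Cyp2e1 exon 1, SD 0.96 and 0.25), and both channels of the Cyp2e1 intron probe stay close (0.17 and 0.12).

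Exon probes of different genes moved in part together over mice in the pairs examined, which did not include Cyp2f2 or Cyp2e1 with Gsta4. The pairs were picked after the values had been seen, and mice were permuted without regard to array design. The Gsta3 and Gsta4 probes had higher means on the first design (0.05 and 0.85) than on the second (-0.49 and 0.33), which can add to a pooled r. Over 14 mice, Gsta3 (last exon) and Gsta4 had r = 0.84 and rho = 0.73 (permutation p = 0.0001 and 0.004, adjusted p = 0.0002 and 0.008), and r was 0.69 without the 2 farthest mice, 0.79 on the first design and 0.89 on the second. Cyp2e1 exon 1 and Gsta3 had r = 0.73 and rho = 0.64 (adjusted p = 0.003 and 0.0192), but r fell to 0.46 without the 2 farthest mice and was 0.46 on the first design and 0.76 on the second, so that relation rested partly on those mice. The genes lie on chromosomes 7, 1 and 9. Averages over mice hide single lesions. Mouse 608 lesion 1 was at -2.88 for Cyp2e1 exon 1 but at 1.05 for Gsta3, 1.98 for Gsta4 and 2.36 for Cyp2f2. Mouse 1770 lesion 1 was at 1.47 for Cyp2e1 exon 1, 0.98 for Gsta3 and 1.31 for Gsta4 but at -1.09 for Cyp2f2. Both are the tumours with the weakest arrays.

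The other exon probes on the sense strand that were well above background on every array had less spread. These 21, in 20 genes, had SDs of 0.12 to 0.45 with a median of 0.20. The highest of them was Cyp27b1, the vitamin D 1-alpha-hydroxylase (SD 0.45, n = 13), and the lowest was Ces2g, a carboxylesterase (SD 0.12, n = 21). The exon probe of Gstz1, an enzyme of tyrosine breakdown, combined a low mean with little spread (-1.03 ± 0.22, SD, n = 13). Another 5 exon probes on the sense strand were not well above background on every array and stayed out of the counts. Their SDs ran from 0.19 to 0.85, with the widest in Ugt2b35, a glucuronosyltransferase (0.85, well above background on 7 of 8 arrays), and in Cyp39a1, an oxysterol hydroxylase (0.58, on 0 of 13 arrays). Intron probes left out in the same way reached 0.74 (Cyp2c37, on 0 of 21 arrays). These genes were named after their values were seen.

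A list of other genes of drug handling, of which 54 were on the arrays (nuclear receptors, transporters, reductases, flavin monooxygenases and the like), was compared for place and strand in the same way. The list had been planned for family counts only, and this use of it also came after the members' values were seen. Of its 26 exon probes on the sense strand, 8 were in the most variable 1% (30.8%): they lay in Abcb4 and Abcc2, which are canalicular transporters, Adh1, the alcohol dehydrogenase, Fmo5, a flavin monooxygenase, Gclc, which makes glutathione's precursor, and Mgst1, a membrane-bound glutathione transferase. There were 0 of 22 among exon antisense, 0 of 43 among intron sense and 1 of 43 among intron antisense probes. Among genes of abundant liver transcripts, a list set up after the pattern was seen and so no independent support, 15 of 29 exon sense probes were in this class, with albumin (Alb) widest at an SD of 1.42 (n = 13), against 0 of 14, 0 of 14 and 1 of 10. Adh1 is on both lists and was counted in each. Cyp2e1 exon 1 and Apoa2, an apolipoprotein, had r = 0.65 over 14 mice (permutation p = 0.00775, adjusted p = 0.0093), which was 0.43 without the 2 farthest. On the first design r was 0.42 (6 mice) and on the second 0.68 (10 mice).

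The count of 6 of 27 was the same without the 2 weakest arrays, with normexp, with GC-corrected ratios and with a baseline of neighbouring probes, although with the first pair of settings Cyp27b1 stood in place of Gsta4. In the authors' loess-normalized table it was 2 of 6 (Cyp2e1 and Gsta3), on the first design 4 of 9 and on the second 4 of 24 (Cyp2e1 and Gsta3 only). The count for exon antisense probes was 0 under each of these settings. What gives exon probes on the sense strand a wider range was not tested. The sources used here do not say whether RNA was removed from the DNA preparations, so whether the values at these exon probes are ratios of DNA alone is not known.

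As families, the members followed their chromosomes about as other genes did. In the fit over the 12315 genes on both designs, 38.8% of all genes were above and 40.3% below the mean of their chromosome at an adjusted p under 0.05, 79.0% together. Of the 77 members tested, 32 were above (41.6%) and 31 below (40.3%), so the members' share was that of all genes. The median over all members of the gene's mean was 0.01, against -0.03 over all genes.

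A member's value also depended on which probes read it. Over members, the median size of the mean was 0.30 and the median SD between tumours 0.26, beside 0.26 and 0.24 over all genes. Probes of the same gene also differed. Cyp2j6, chosen after its values were seen, had 6 probes with means from -0.39 to 1.58 and SDs of 0.11 to 0.49 each. Among 34 members whose probes differed between the designs, 24 had means of the same sign on both (70.6%, r = 0.31 across genes, which are not independent replicates), beside 56.0% and r = 0.19 for all such genes. Among 43 members that shared a probe, it was 33 (76.7%, r = 0.74), beside 76.1% and r = 0.74.

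**Figure D4:**
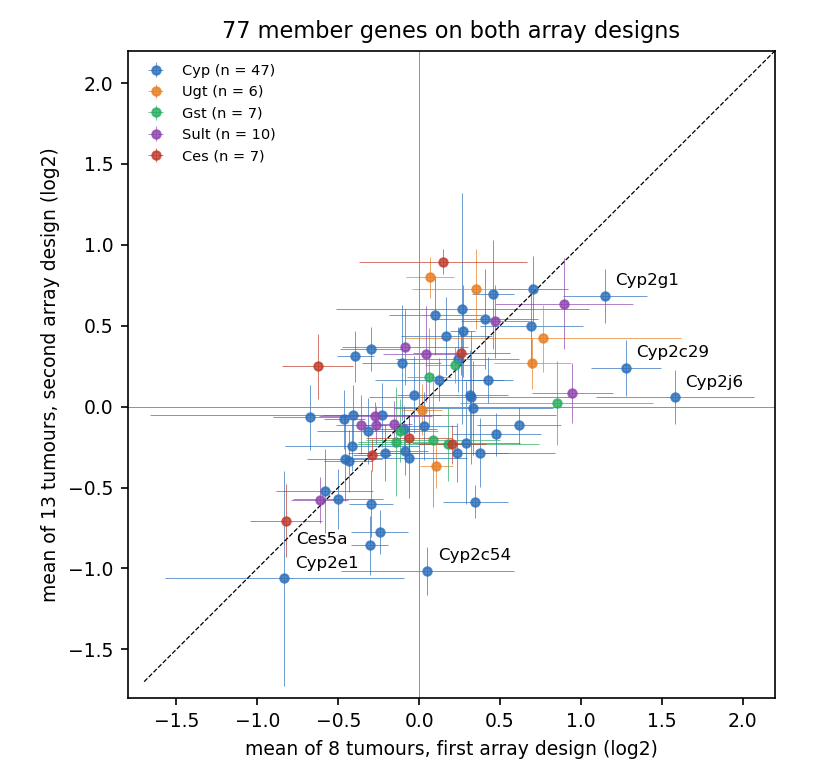
Mean log2 value of the 77 members on both array designs, with SD over the 8 tumours of the first and the 13 of the second, coloured by family; the dashed line marks equal values. Cyp2e1 lies low and Cyp2g1 high on both designs, while Cyp2c29 (1.28 and 0.24) and Cyp2j6 (1.58 and 0.06) lie far from the line.

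Among the P450 genes, 19 of 47 tested were above and 19 below, and the family's median was 0.04 (86 genes). Per mouse this median ran from -0.13 to 0.10, with 7 of 14 mice above 0. Cyp7b1, an oxysterol hydroxylase of the alternative bile acid pathway, was read by 8 probes and was above 0 in 21 of 21 tumours (0.39 ± 0.25, SD; fitted mean 0.39, SE 0.05, adjusted p = 4.4e-08), with 0.27 on the first design and 0.47 on the second. Cyp7a1, the rate-limiting enzyme of bile acid synthesis, was at 0.32 ± 0.12 and Cyp8b1, the sterol 12-alpha-hydroxylase, at 0.34 ± 0.31 (SD, n = 13, second design only and not tested). Cyp27a1, the sterol 27-hydroxylase, was 0.48 on the first design and -0.17 on the second, so its fitted mean of 0.15 (SE 0.04, adjusted p = 0.00185) averages opposite signs.

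Of the drug-metabolizing P450 genes, Cyp2b10, the classic target of phenobarbital, was below in 20 of 21 tumours (-0.37 ± 0.18, SD; fitted mean -0.40, SE 0.04, adjusted p = 6.2e-10) and alike on both designs (-0.44 and -0.34). Cyp3a11, a main drug-oxidizing P450 of mouse liver, had a fitted mean of 0.15 (SE 0.05, adjusted p = 0.0138), which turned to -0.06 with a correction for GC content and whose adjusted p was 0.137 without mouse 1770. Cyp2c29 was 1.28 ± 0.22 on the first design and 0.24 ± 0.17 on the second, which read it by different probes (fitted mean 0.77, SE 0.04, adjusted p = 4.0e-14). Cyp1a2, the caffeine-oxidizing enzyme (0.07 ± 0.29), Cyp4a14, a fatty acid omega-hydroxylase (0.39 ± 0.12), and Cyp51, the lanosterol demethylase of cholesterol synthesis (0.02 ± 0.11), were read in 13 tumours and not tested. Of genes named after their values were seen, Cyp2g1, an olfactory P450, was above 0 in 21 of 21 tumours (fitted mean 0.91, SE 0.04, adjusted p = 6.1e-15) and Cyp4f14, a leukotriene hydroxylase, had the highest mean of all members, 2.18 ± 0.32 (SD, n = 13) from 1 probe that was not well above background on every array.

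The Ugt genes had the highest median among families with more than 1 gene, 0.28 (10 genes), and 14 of 14 mice were above 0, between 0.01 and 0.33. Of 6 tested, 4 were above and 1 below. The median was 0.11 on the first design (9 genes) and 0.27 on the second (7 genes). It was 0.11 with GC correction and 0.09 with probes common to both designs. With at least 2 probes on each design only Ugt1a10 was left, at -0.19. The Ugt2 genes lie in a stretch of chromosome 5 whose other probes were also above the chromosome, as described below. Ugt2b1, a hepatic glucuronosyltransferase, was at 0.13 ± 0.19 (SD, n = 13), from -0.15 to 0.38. Ugt1a10, whose symbol here covers probes across the Ugt1a locus, was read by 7 probes, and its value was 0.11 on the first design and -0.37 on the second (fitted mean -0.13, SE 0.03, adjusted p = 0.000177). That sign turned to 0.03 with a baseline of probes within 5 Mb.

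The Gst genes had a median of -0.19 (19 genes), with 2 of 14 mice above 0, 3 of 7 tested genes above and 2 below. The median of the 7 on the first design was 0.09 and that of the 19 on the second -0.23. Gstp1, the pi-class enzyme, was at -0.52 ± 0.26 with 13 of 13 tumours below 0, and at -0.01 after GC correction. Gstm1, of the mu class, was at 0.05 ± 0.24 (n = 13). Gstt1, of the theta class, was at -0.08 ± 0.43 (n = 21, adjusted p = 0.954), with 0.18 on the first design and -0.23 on the second. Gsta3 as a gene did not pass the test (fitted mean -0.03, SE 0.08, adjusted p = 0.724) and was at 0.33, past the threshold, when its exon probes were left out.

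For sulfotransferases the median was -0.12 (16 genes; of 10 tested, 4 above and 5 below), and Sult1a1, the phenol sulfotransferase, was at -0.35 ± 0.18 with 13 of 13 tumours below 0. For carboxylesterases the median was -0.02 (17 genes; of 7 tested, 2 above and 4 below). Ces1d, a triacylglycerol hydrolase, was at 0.29 ± 0.24 and Ces2a, of the second carboxylesterase group, at -0.82 ± 0.26 (SD, n = 13 for both), the latter below 0 in all 13 tumours. Ces5a, named after its value was seen, was below 0 in 21 of 21 tumours (-0.82 and -0.70 on the designs). The single Mup gene, Mup3, was at 0.77 ± 0.26 (SD, n = 8 tumours of 6 mice), from 0.46 to 1.06. For scale, the other drug handling genes had a median of 0.01 (20 of 49 tested above and 15 below), and the tandem families of olfactory (Olfr) and vomeronasal (Vmn1r, Vmn2r) receptor genes had medians of -0.04 and 0.15.

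Of the members, 102 lay in 14 clusters of at least 3 genes with gaps under 1 Mb, and 47 lay outside. Each cluster was set against the other probes within 1 Mb of it, mouse by mouse and without a test. The cluster of Cyp4a, Cyp4b and Cyp4x genes on chromosome 4, which oxidize fatty acids, was above its flank in 14 of 14 mice by 0.17 ± 0.13 (SD). The Cyp3a cluster on chromosome 5 was above in 12 mice (0.19 ± 0.22) and the Ces1 and Ces5 cluster on chromosome 8 in 11 (0.18 ± 0.18). The Cyp4f cluster on chromosome 17 was below in 13 of 14 mice (-0.12 ± 0.13), the Gstm cluster on chromosome 3 in 11 (-0.11 ± 0.12) and the Sult2a cluster on chromosome 7 in 11 (-0.10 ± 0.15). Probes on the first and second design numbered 3 and 7 for Cyp4a, 6 and 3 for Cyp3a, and 7 and 20 for Ces1 and Ces5. They numbered 7 and 11 for Cyp4f, 1 and 10 for Gstm, and 5 and 2 for Sult2a. Some of these counts of mice therefore rest on few probes. The other 8 clusters differed from their flanks by -0.05 to 0.13 on average.

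**Figure D5:**
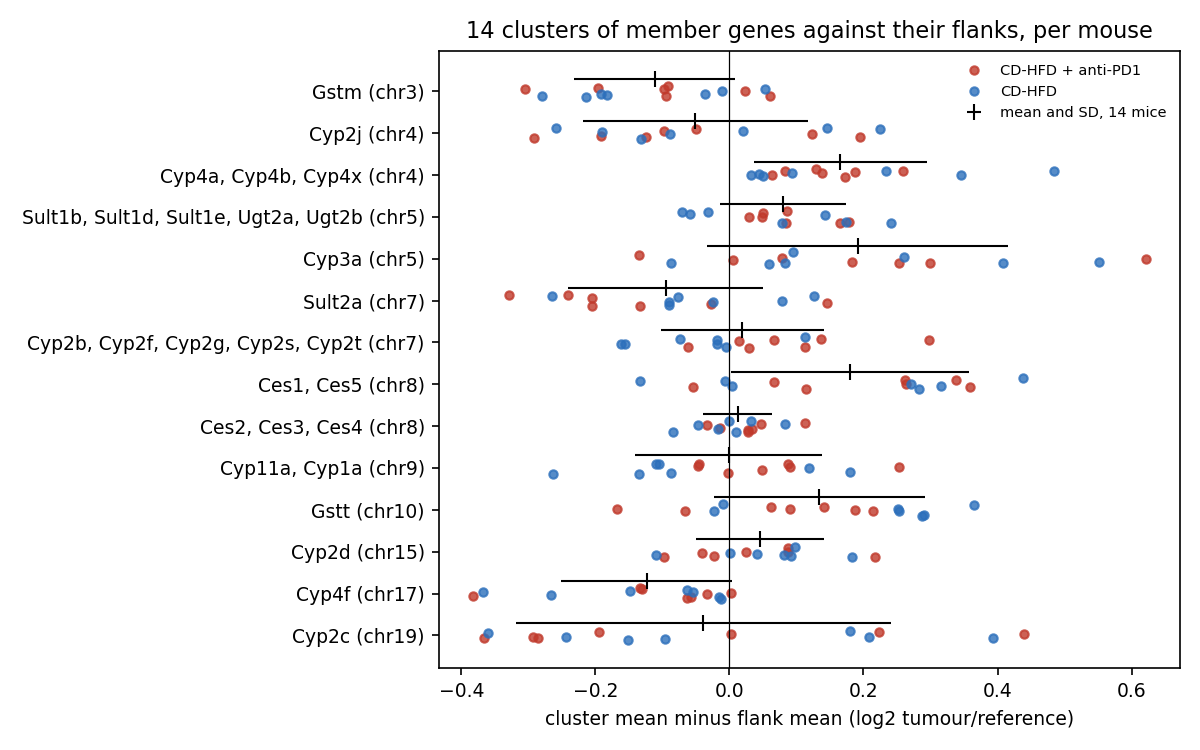
Mean of each of the 14 clusters minus the mean of its flank within 1 Mb (log2 tumour over reference); each point is a mouse, coloured by group, and the black bar gives the mean and SD of 14 mice. The Cyp4a cluster lies above 0 in 14 of 14 mice and the Cyp4f cluster below 0 in 13, and most clusters straddle 0.

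The cluster that holds the Ugt2 genes with Sult1b, Sult1d and Sult1e stood at 0.36 ± 0.09 (SD, n = 14 mice), the highest of all, but its flank stood at 0.29 ± 0.06, and the difference was 0.08 ± 0.09, with 11 of 14 mice above the flank (0.01 on the first design and 0.15 on the second). GC content in 50 kb around its probes was 37.3% and around the flank's 38.3%, the lowest pair of the 14. Designs often disagreed on a cluster. The Cyp2c cluster was 0.33 above its flank on the first design and 0.23 below it (-0.23) on the second, the Ces1 and Ces5 cluster -0.08 and 0.32, the Cyp2j cluster 0.15 and -0.17, the Sult2a cluster 0.03 and -0.19, and the Cyp3a cluster 0.43 and 0.06. For the Cyp4a cluster both were above (0.31 and 0.07) and for Cyp4f both were below (-0.26 and -0.04).

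Whether anti-PD1 treatment went with a different ratio at these genes was tested in the same fit. Of the 77 members 0 differed at an adjusted p under 0.05, as did 0 of all 12315 genes (0%). Unadjusted, 9 members (11.7%) had a limma p under 0.05, beside 9.96% of all genes. The smallest p-values were those of Cyp4f39, an omega-hydroxylase known from skin, with anti-PD1 mice at -0.21 ± 0.19 and CD-HFD mice at -0.52 ± 0.24 (SD, n = 7 each; fitted difference 0.33, SE 0.08, limma adjusted p = 0.293), Cyp26c1, a retinoic acid hydroxylase (difference 0.22, SE 0.06, adjusted p = 0.304), and Ugt2a1, an olfactory glucuronosyltransferase (difference 0.22, SE 0.07, adjusted p = 0.311). The groups overlapped at each: at Cyp4f39, anti-PD1 mice ran from -0.39 to 0.13 and CD-HFD mice from -0.87 to -0.25.

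Per mouse, the median over all members was -0.03 ± 0.05 in the anti-PD1 group and 0.00 ± 0.08 in the CD-HFD group (SD, n = 7 each). By family the 2 groups were -0.01 and 0.01 for Cyp, 0.22 and 0.16 for Ugt, -0.20 and -0.12 for Gst, -0.05 and -0.01 for Sult, and 0.00 and -0.02 for Ces, with SDs of 0.03 to 0.25, given without a test. At 19 single probes of Cyp2e1, Cyp2f2, Cyp2j8, Gsta3 and Gsta4, an exact permutation test over mice gave 1 p under 0.05 (the second exon probe of Gsta4, -0.14 ± 0.13 in 6 anti-PD1 and -0.45 ± 0.12 in 4 CD-HFD mice, p = 0.00476, unadjusted), and the 6 widest exon probes had p-values from 0.552 to 0.977, of which that of Cyp2f2 compares 3 mice with 3 and could not pass 0.05.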

How the data were processed

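Genomic DNA of 21 tumours was hybridized by the authors to 2-colour Agilent arrays of 2 designs (3 slides) and read with Feature Extraction 11.0.1.1. The deposited scanner files hold background-subtracted, dye-normalized intensity in each channel (green, tumour; red, reference), and a second deposited file gives the authors' own log2 ratios after loess for 11526 probes, used as an alternative. Per the file headers coordinates are mm9. Per array, 59052 spots were read and 88 to 228 flagged spots left out.

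From the intensities, log2(green/red) was centred on the array's median, averaged over replicate spots, then over probes of a gene, and set against the mean of the chromosome. Genes on both designs were tested with limma 3.58.1 (mean of the groups against 0, and anti-PD1 minus CD-HFD; array design as covariate, mouse as random block, consensus correlation -0.16; two-sided, Benjamini-Hochberg over 12315 genes, tested on simulated data). Tumours of a mouse are not independent, so group values are over mice. The number of arrays limits the precision. Probes were placed on GRCm38 by exact match (306 of 306 members, 1 match each), and a probe with at least 30 bases in a GENCODE exon counted as exon.

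The members and lists were chosen with earlier results of these data known. Genes named were, by rule, the highest and lowest member of a family with at least 3 probes on each design (which only Cyp7b1 and Ugt1a10 have), the 3 smallest p-values between groups, and 22 genes with a known role in liver, of which 19 were on the arrays; all others were named after their values were seen. Alternatives covered background, normalization, GC, baseline, probe and gene filters, blocks and leaving out each mouse. Python 3.11.15, R 4.3.3.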

Additional observations from a re-analysis of the deposited data

Results flagged for a closer look

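In 70 groups of 4 to 7 mice (family medians, clusters minus flank, and 19 probes of 5 genes), 7 had a mouse far from the rest of its group. Chance alone flags about 1 in 20 groups that were not picked by their values. The 19 probes belong to genes picked for a probe that varied widely in these same data. That rate therefore does not apply to them, and the count of 7 cannot be set against it. The exon 1 probe of Cyp2e1 in CD-HFD mouse 1770 was at 0.32, with the other 6 between -2.18 and -1.27. The intron probe of Cyp2j8 that lay among the most variable was at -1.72 in anti-PD1 mouse 2116, with the others between -0.08 and 0.17. Other probes of Cyp2j8 were highest in anti-PD1 mouse 1109, at 0.49 (others -0.09 to 0.13) and 0.44 (others -0.30 to -0.09). The second exon probe of Gsta4 was at 0.11 in the same mouse, with the others between -0.26 and -0.12. The Cyp4f cluster minus its flank was at -0.38 in anti-PD1 mouse 604, with the others between -0.13 and 0.00. The median of the Ces family was -0.12 in anti-PD1 mouse 608, with the others between -0.02 and 0.06.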

How the results depend on the processing

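No paired analysis was possible because no mouse belongs to both groups. The number of members differing between groups was 0 under each alternative run, with 6 to 16 at an unadjusted limma p under 0.05 when each mouse was left out. The share of all genes at that unadjusted p was not taken for these runs. Settings that test fewer genes gave fewer members above: 14 with the authors' loess table (40 tested), 17 with probes common to both designs (43), 1 with at least 3 probes on each design (2) and 4 with at least 2 (11). Below, the counts were 12, 16, 1 and 5. Of all genes, the same settings in this order put 38.4%, 38.8%, 45.8% and 45.2% above. They put 38.1%, 43.1%, 33.1% and 34.3% below. Leaving out each mouse gave 29 to 33 members above and 30 to 31 below. The shares over all genes were then 37.6% to 39.0% above and 38.8% to 40.3% below.

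Family medians were movable. Cyp went to -0.040 with GC correction, 0.16 with common probes and -0.050 with GC correction and a 5 Mb baseline. With at least 3 probes only Cyp7b1 was left of Cyp, at 0.39. Ugt went to 0.18 (loess), 0.11 (GC), 0.086 (common probes), 0.11 (5 Mb baseline) and 0.080 (GC and 5 Mb). With at least 3 or at least 2 probes only Ugt1a10 was left of Ugt, at -0.19. Loess gave 0.17 for Gst, 0.091 for Sult and -0.31 for Ces; Ces was -0.10 with common probes and 0.062 with the 5 Mb baseline. Without each mouse in turn, Cyp stayed between 0.03 and 0.06, Ugt between 0.25 and 0.30, Gst between -0.21 and -0.16, Sult between -0.13 and -0.10, Ces between -0.04 and 0.00 and Mup between 0.74 and 0.81.

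Cyp3a11 reversed to -0.059 with GC correction alone and -0.056 with GC correction and the 5 Mb baseline, and Ugt1a10 to 0.033 with that baseline. Gstt1 passed the threshold in 5 settings with both signs (-0.27 with loess, 0.44 with GC correction). Of the cluster values, 21 moved by more than the SD over mice, 8 of them with common probes and 6 with loess. The cause of these shifts was not tested. The settings that leave out exon probes on the sense strand or weak arrays, or that join GC correction with the 5 Mb baseline, were chosen after seeing the data.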
